A study of Mus musculus with 8 samples.

Results

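BMP and TGF-beta response genes were followed in whole colons of mice with and without an intact Ihh gene in the intestinal epithelium. The set holds 10 listed genes in 4 roles, namely the TGF-beta ligands Tgfb1 and Tgfb3, the BMP receptors Bmpr1a and Bmpr2, the inhibitory Smads Smad6 and Smad7, and the Id genes Id1, Id2, Id3 and Id4. They were chosen by gene symbol. On the array 9 of the 10 had a named probe, with 13 probes in all among probes for 16593 named genes. Smad7 was not analysed here, and Bmpr2 was too dim to test, which left 8 of the 10184 named genes tested.

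Wildtype mice were Villin-CreERT2-Ihh+/+ and knockout mice Villin-CreERT2-Ihhfl/fl, all of C57BL/6 background, with 4 colons per genotype. Both groups therefore carried the tamoxifen-inducible recombinase, and both received 1 mg tamoxifen by intraperitoneal injection on 5 consecutive days before harvest at day 7. Villin drives the recombinase in the epithelium, so cells of the mesenchyme keep their Ihh alleles. Ihh, the epithelial hedgehog ligand targeted by the recombinase, averaged 10.39 ± 0.15 in wildtype against 9.34 ± 0.24 in knockout colons on the log2 scale (SD, n = 4 each), without overlap (limma adjusted p = 0.130). The labels give no ages, and the share of epithelial cells that lost Ihh is not known from these values.

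BMP and TGF-beta ligands bind paired receptors of type I and type II on the cell surface, and the activated type I receptor phosphorylates receptor Smads that enter the nucleus with Smad4. Id genes are among the most direct transcriptional targets of BMP signalling, and Smad6 and Smad7 are induced by the same signals and feed back on them. In the gut, BMP ligands come largely from the mesenchyme beneath the epithelium and act on both layers, where they favour differentiation over proliferation in the crypts. Id proteins bind basic helix-loop-helix transcription factors and keep them from DNA.

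Of the 8 genes tested, 7 had lower mean levels in the knockout colons, and Tgfb1 alone had a higher one. None passed the threshold of 0.05 for the p-value from limma adjusted over all probes (0 of 8, against 0.0196% of all genes tested). The changes of the 8 genes lay between -0.45 (Smad6) and 0.52 (Tgfb1) on the log2 scale, with a median of -0.30. Over all genes tested the median change was -0.0047, and 50.9% had a change below 0. At an unadjusted p under 0.05, 1 of the 8 was lower (Tgfb3), against 4.34% of all genes, and 1 was higher (Tgfb1), against 6.7%. The values of both genotypes did not overlap in 1 gene that was lower (Id1), against 2.83% of all genes, and in 1 that was higher (Tgfb1), against 4.85%. All values are from whole tissue, in which fewer cells of a type and less RNA per cell cannot be told apart.

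**Figure D1:**
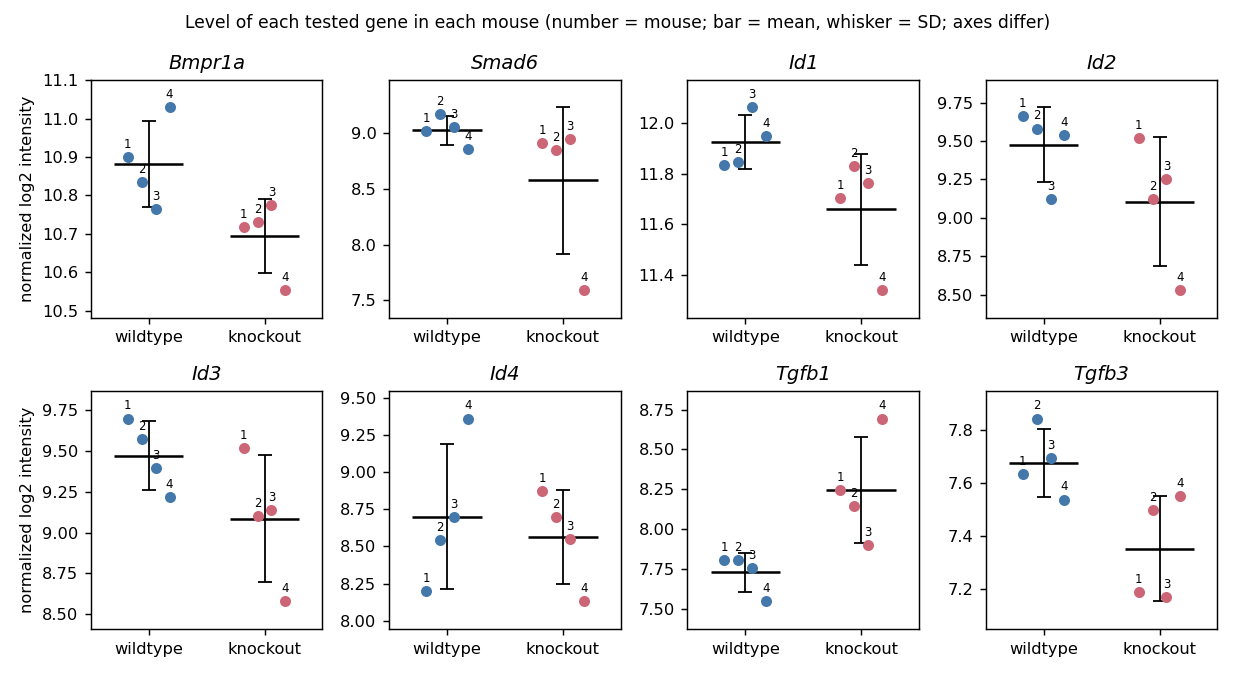
Normalized log2 intensity of the 8 tested genes in each of the 4 wildtype (blue) and 4 knockout (red) colons, with mouse numbers, the group mean and whiskers of 1 SD; the vertical axes differ between panels and do not start at 0. The genotypes are fully separate in Id1 and Tgfb1, and knockout 4 is the lowest of all colons in Bmpr1a, Smad6, Id1, Id2, Id3 and Id4.

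The arrays were alike in brightness, with mean raw intensities of 902 to 1258 and 14465 to 15040 of 25697 probes detected. Knockout 4 stood apart, with a mean correlation of 0.956 with the other arrays, where the others had 0.964 to 0.977. It also had the lowest colonocyte score. Its score for 12 colonocyte markers, the mean of their log2 values after each gene's mean is subtracted, was -0.49, against -0.034 to 0.19 in the other 7 colons. The markers were split. Car4 (11.71), Slc26a3, Aqp8, Guca2a, Krt20, Vil1 and Cdx1 were lowest in knockout 4. Krt19 was highest there (14.00), and Krt8, Lgals4, Cdh17 and Cdx2 lay within the range of the other colons. The scores of knockout 4 for 7 proliferation genes (0.91) and 8 fibroblast markers (0.41) were the highest, against -0.62 to 0.50 and -0.46 to 0.16 in the others. Probes of the Y chromosome gave a male pattern for 1 wildtype mouse and 3 knockout mice of 4 each, and 2 colons of each genotype had high skeletal muscle markers. Skin markers varied widely, with scores of -2.84 to 2.19 in wildtype and -2.50 to 1.20 in knockout colons and lower means in 9 of 9 genes (median -0.75). The part of these differences in the results was not tested beyond the values given for fits without knockout 4, with the sex pattern as a term or in the mice with low muscle markers.

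The ligands of the TGF-beta branch lay on opposite sides. Tgfb1 encodes the TGF-beta made by many immune and stromal cells and stored in the matrix in a latent form. Its log2 intensity was 7.81, 7.81, 7.76 and 7.55 in wildtype colons 1 to 4, and 8.25, 8.15, 7.90 and 8.69 in knockout colons 1 to 4. Each knockout colon lay above each wildtype colon, with knockout 4 the highest. The group means were 7.73 ± 0.12 and 8.25 ± 0.33 (SD, n = 4 each), a difference of 0.52 (SE 0.17), or 1.43-fold, with a 95% confidence interval of 0.13 to 0.90. This did not pass after adjustment (limma adjusted p = 0.387), and an exact permutation test of this gene alone gave p = 0.0286 (two-sided), the smallest that 4 mice against 4 allow. Without knockout 4 the difference was 0.37. Without background correction it was 0.33.

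Tgfb3, a ligand of the same family expressed in mesenchyme, had log2 intensities of 7.63, 7.84, 7.70 and 7.54 in wildtype colons 1 to 4. In knockout colons 1 to 4 the values were 7.19, 7.50, 7.17 and 7.55. The values of knockouts 1, 2 and 3 lay below the lowest wildtype value, and knockout 4 lay just above it. The difference of -0.32 (SE 0.13, 95% confidence interval -0.63 to -0.023) is a 1.25-fold lower signal and did not pass (limma adjusted p = 0.440). Unlike the other genes with lower means, Tgfb3 differed more without knockout 4 (-0.39) than with it. It differed by -0.18 without background correction.

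Markers of macrophages, cells that make Tgfb1 among many others, were measured beside it. Of 6 tested macrophage markers 5 had higher means in knockout colons (median 0.31), and their summed intensity was 6392 to 7533 in wildtype and 6934 to 10705 in knockout colons. Itgam of this list was too dim to test. Of 6 T and NK cell markers 5 had higher means, with a median of 0.28 and sums of 2369 to 3975 in wildtype and 2268 to 2899 in knockout colons. Prf1 was the marker with a lower mean (-0.35). It was also the brightest, with a mean of 11.17 against 6.19 to 7.65 for the others, so these sums are mostly its signal. Cd8a and Gzmb were detected on no array. The part of either cell type in the Tgfb1 values was not tested.

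Bmpr1a encodes the type I BMP receptor that epithelium and mesenchyme of the gut both use, and it was bright on every array. Wildtype colons 1 to 4 had log2 intensities of 10.90, 10.84, 10.77 and 11.03, and knockout colons 1 to 4 had 10.72, 10.73, 10.78 and 10.55. The values of knockouts 1, 2 and 4 lay below the lowest wildtype value, and knockout 3 overlapped with the wildtype range by a narrow margin. The difference was -0.19 (SE 0.11, limma adjusted p = 0.538), with an interval of -0.44 to 0.060. A second, dimmer probe of Bmpr1a showed a difference of 0.0038 (SE 0.15), and the correlation of both probes over the 8 mice was 0.191. The probes thus disagree, and the lower values of Bmpr1a rest on the brighter probe.

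Bmpr2 encodes the type II receptor that pairs with Bmpr1a. One of its probes was detected on 0 of 8 arrays, with raw intensities of 149.5 to 180.0, and the other on 1 wildtype and 1 knockout array, with 168.0 to 190.1. Its level could not be compared at this signal over background.

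Smad6 and the Id genes are the readouts that lie nearest to the receptors. The promoters of Smad6, Id2 and Id3 are shown because the levels of Id3 ran with those of Id2 and of Smad6 across the mice, as given further on. The sequences are from RefSeq (GRCm38.p6), and the promoters of 7 of the 10 genes were searched. Those of Smad7, Id1 and Tgfb3 were not. The sequences shown run 5′ to 3′ on the gene's strand over the 250 bases before the start of the promoter entry, and for Smad6 over 4 bases after it. The annotated Smad6 gene reaches farther upstream, to base 64022085, so the last bases of its sequence lie within that gene. Capitals mark a match to GGCGCC, a GC-rich element described for BMP Smads, or to GTCTAGAC, the palindrome bound by Smad3 and Smad4.
Smad6, chr9:64022056-64022309, minus strand: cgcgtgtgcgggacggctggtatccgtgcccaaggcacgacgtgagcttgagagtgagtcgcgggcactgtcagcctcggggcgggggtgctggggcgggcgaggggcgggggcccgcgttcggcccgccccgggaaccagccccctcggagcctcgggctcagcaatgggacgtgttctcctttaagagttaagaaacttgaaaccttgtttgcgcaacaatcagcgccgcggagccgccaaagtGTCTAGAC
Id2, chr12:25096093-25096342, minus strand: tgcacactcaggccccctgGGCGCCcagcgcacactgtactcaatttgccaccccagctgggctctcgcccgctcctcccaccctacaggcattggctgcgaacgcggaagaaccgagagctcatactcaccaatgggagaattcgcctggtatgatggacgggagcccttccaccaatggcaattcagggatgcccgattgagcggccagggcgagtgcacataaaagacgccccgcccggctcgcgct
Id3, chr4:136143572-136143821, plus strand: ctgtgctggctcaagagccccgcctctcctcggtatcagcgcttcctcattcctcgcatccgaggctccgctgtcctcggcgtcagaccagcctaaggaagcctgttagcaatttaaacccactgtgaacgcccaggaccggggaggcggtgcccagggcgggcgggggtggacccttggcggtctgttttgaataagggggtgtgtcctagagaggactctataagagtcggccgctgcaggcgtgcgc

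Motifs were searched on both strands in the full windows of 300 bases, 250 before and 50 after the start. Among the 7 genes searched, which leave out the other inhibitory Smad, Smad7, GTCTAGAC occurred in Smad6 only. Its first base lay 4 bases before the start of the promoter entry, and 0.213% of all 32851 promoters hold the motif. GGCGCC occurred once each in Id2, Id4, Bmpr1a and Bmpr2, and 11.9% of all promoters hold it. The motif holds only G and C, and the 7 windows had GC contents of 59.3% to 79.3%. The share over all promoters was not matched for GC content. Id3 and Tgfb1 held neither motif. GGCGCC with GTCT on either side at a spacing of 5 bases, which overlaps the GGCGCC motif, and the E-box CACGTG occurred in 0 of the 7, against 0.119% and 7.15% of all promoters. A match is a description of these letters and not a binding site, and elements farther upstream lie outside the windows.

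Smad6 encodes an inhibitory Smad that blocks BMP signalling at the receptor and in the complex with Smad4. The values were 9.02, 9.17, 9.06 and 8.86 in wildtype colons 1 to 4, and 8.92, 8.85, 8.95 and 7.59 in knockout colons 1 to 4. Knockout 4 alone lay far below the rest, and the other 3 knockout colons lay within the wildtype range or just below it. The difference was -0.45 (SE 0.29, limma adjusted p = 0.566), with an interval of -1.10 to 0.20. Without knockout 4 it was -0.12. The second, dimmer Smad6 probe differed by -0.35 (SE 0.26), with a correlation of 0.692 with the first over the 8 mice.

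Among the Id genes, Id1 was the brightest and the one whose genotypes separated. Id1 is a standard readout of BMP signalling in many cell types and is also strongly expressed in endothelium. Wildtype colons 1 to 4 had log2 intensities of 11.83, 11.85, 12.06 and 11.95, and knockout colons 1 to 4 had 11.71, 11.83, 11.76 and 11.34. The highest knockout value, in knockout 2, lay just below the lowest wildtype value, so the groups are separate by a margin far smaller than the SD within either. The means of 11.92 ± 0.11 and 11.66 ± 0.22 (SD, n = 4 each) differ by -0.27 (SE 0.14), or 1.20-fold, with an interval of -0.57 to 0.040. Adjusted over all probes this did not pass (limma adjusted p = 0.496), and the exact permutation test of Id1 alone gave p = 0.0286, the value that any gene with separate groups must reach. The same exact permutation test gave p = 0.0571 for Tgfb3 and for Bmpr1a, 0.0857 for Smad6, 0.143 for Id3, 0.171 for Id2 and 0.714 for Id4. Without knockout 4 the difference was -0.16.

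Id3, which often moves with Id1 under BMP, had values of 9.70, 9.57, 9.39 and 9.22 in wildtype colons 1 to 4 and of 9.52, 9.10, 9.14 and 8.58 in knockout colons 1 to 4. Knockouts 2, 3 and 4 lay below every wildtype colon, while knockout 1 lay within the wildtype range. The difference of -0.39 (SE 0.20, limma adjusted p = 0.504) became -0.22 without knockout 4.

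For Id2, an Id gene of epithelium and of innate lymphoid cells, the values were 9.66, 9.58, 9.12 and 9.54 in wildtype colons 1 to 4 and 9.52, 9.12, 9.25 and 8.53 in knockout colons 1 to 4. Only knockout 4 lay below every wildtype colon. The difference was -0.37 (SE 0.22, limma adjusted p = 0.541), and -0.18 without knockout 4. The second Id2 probe gave a difference of -0.40 (SE 0.21), with a correlation of 0.624 between the probes.

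Id4, an Id gene best known from neural tissue, had values of 8.20, 8.54, 8.70 and 9.36 in wildtype colons 1 to 4 and of 8.88, 8.70, 8.55 and 8.13 in knockout colons 1 to 4. The groups overlapped almost wholly. The difference was -0.14 (SE 0.25, limma adjusted p = 0.851), with an interval of -0.71 to 0.44. It was 0.0086 without knockout 4 and 0.085 without wildtype 4, so Id4 has no settled direction in these mice.

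**Figure D2:**
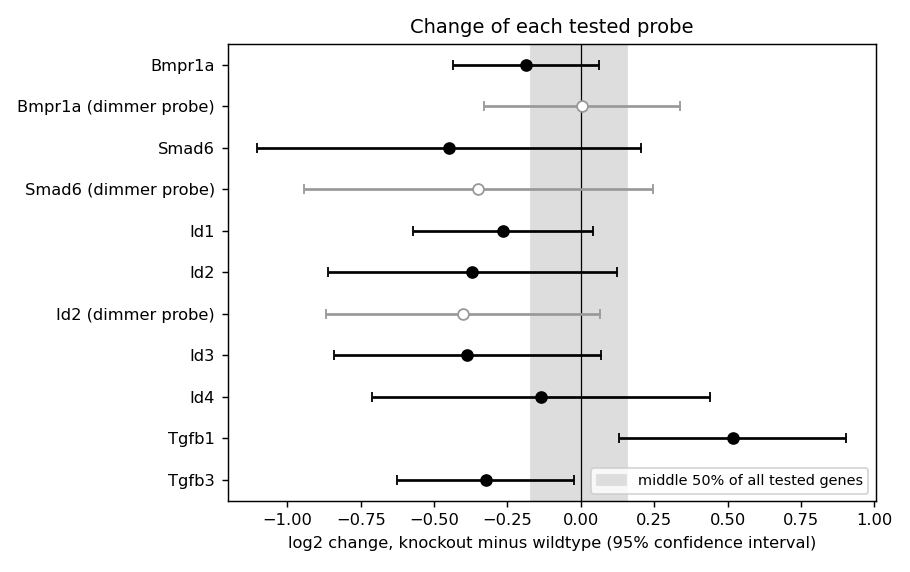
Log2 change from wildtype to knockout for the 11 tested probes of the 8 genes, with 95% confidence intervals; open symbols are the dimmer probe of a gene, and the grey band is the middle 50% of all tested genes (-0.17 to 0.16). The intervals of Tgfb1 and Tgfb3 leave out 0, on opposite sides, before any adjustment for the number of probes.

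With all mice the median change of the 8 genes was -0.30, and without knockout 4 it was -0.15, with 6 of the 8 lower. Leaving out any of the other 7 mice in turn gave medians of -0.35 at the lowest. The wildtype arrays lay at positions 1 to 4 and the knockout arrays at positions 5 to 8 of 1 beadchip. Position and genotype thus correlate by 0.873 and can hardly be told apart in a fit with both, where the median SE of the 8 genes is 1.75 times as large. With position as a term the changes turned to 0.45 for Smad6, 0.36 for Id2 and 0.49 for Id3, while Id1 (-0.15), Bmpr1a (-0.16), Tgfb1 (0.46) and Tgfb3 (-0.39) kept their sign. Each limma adjusted p in that fit was 0.985 or above. In the 4 mice low in skeletal muscle markers the median of the 8 genes was -0.14, with -0.0054 for Smad6.

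**Figure D3:**
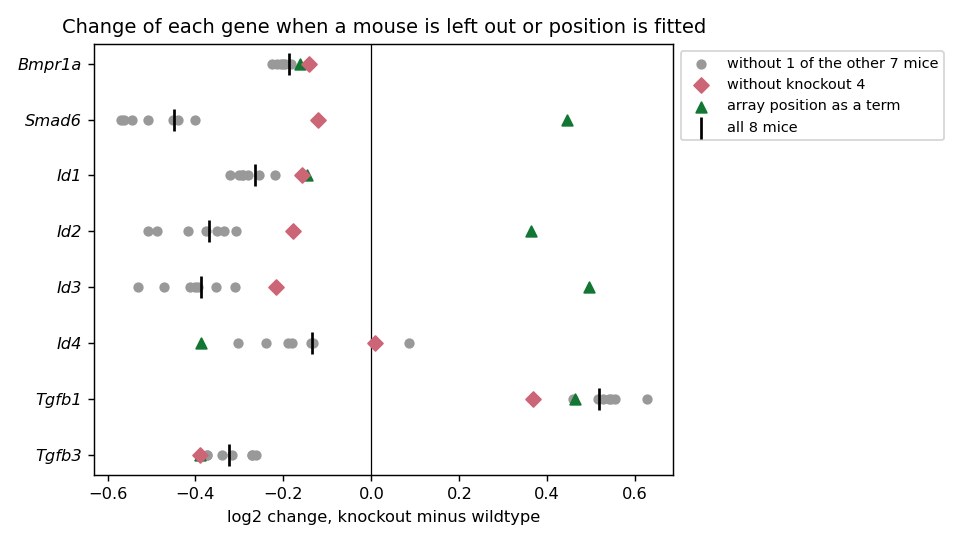
Log2 change from wildtype to knockout for each tested gene with all 8 mice (black line), without each of 7 mice in turn (grey), without knockout 4 (red diamond) and with array position as a term (green triangle). Without knockout 4 the change of Smad6 is -0.12 in place of -0.45, and the changes of Id1, Id2 and Id3 are also nearer to 0.

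Levels of endothelial and smooth muscle markers were set beside the Id genes and Smad6, which both tissues express. Of 10 tested endothelial markers 7 had lower means in knockout colons (median -0.14), and their summed intensity was 6412 to 8195 in wildtype and 5439 to 7501 in knockout colons. Cdh5 and Kdr of that list were too dim to test. Of 9 smooth muscle markers all 9 had lower means, with a median of -0.46 and sums of 103995 to 128738 in wildtype and 73475 to 118764 in knockout colons. Of 12 colonocyte markers 7 had lower means, with a median of -0.078 and sums of 223682 to 241623 in wildtype and 194470 to 244014 in knockout colons. Proliferation genes, which BMP signalling is known to restrain in crypts, had higher means in 7 of 7, with a median of 0.82 and sums of 3642 to 5495 in wildtype and 5831 to 10726 in knockout colons. None of these genes passed the threshold, and their part in the levels of the Id genes and Smad6 was not tested.

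Levels were next compared between the genes, mouse by mouse. All 28 pairs of the 8 tested genes were compared by Pearson's r and Spearman's rho of log2 intensity, each with an exact permutation test. The permutations ran over all 8 mice whatever their genotype, so differences between the genotypes enter these p-values. Each gene was read from its brightest tested probe alone. The dimmer probes of Bmpr1a, Id2 and Smad6 were not compared, and they correlated with the brighter probes by 0.191, 0.624 and 0.692. After adjustment over the 28 pairs, 4 passed by r and 0 by rho. Id2, on its brighter probe, and Id3 had an r of 0.897 (exact permutation p = 0.00476, adjusted p = 0.0444). Their rho was 0.850 (exact permutation p = 0.0114, adjusted p = 0.106). Without the 2 mice farthest from the median of Id2 their r was 0.574, and without knockout 4 it was 0.702. Once the genotype means were subtracted, it was 0.854. Smad6 and Id3 had an r of 0.864 (exact permutation p = 0.00689, adjusted p = 0.0483) and a rho of 0.786 (exact permutation p = 0.0279, adjusted p = 0.168). Their r was 0.605 without the 2 farthest mice, 0.652 without knockout 4 and 0.820 with genotype means subtracted. Smad6 and Id2 had an r of 0.835 with all mice and of 0.248 without knockout 4, so their relation rests on that mouse.

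Tgfb1 ran against the brighter probe of Bmpr1a and against Id1. Its r with Bmpr1a was -0.910 (exact permutation p = 0.00198, adjusted p = 0.0444), with a rho of -0.857 (exact permutation p = 0.0107, adjusted p = 0.106). This r was -0.713 without the 2 mice farthest from the median of Bmpr1a, -0.831 without knockout 4 and -0.805 once the genotype means were subtracted. With Id1, Tgfb1 had an r of -0.899 (exact permutation p = 0.00389, adjusted p = 0.0444) and a rho of -0.929 (exact permutation p = 0.00223, adjusted p = 0.0625). That r was -0.831 without the 2 farthest mice, -0.701 without knockout 4 and -0.812 with genotype means subtracted. Each genotype has 4 mice, too few for a correlation of its own. Id1 and Id3, which are often read as 1 signal, had an r of 0.661 with all mice and of -0.073 without knockout 4.

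**Figure D4:**
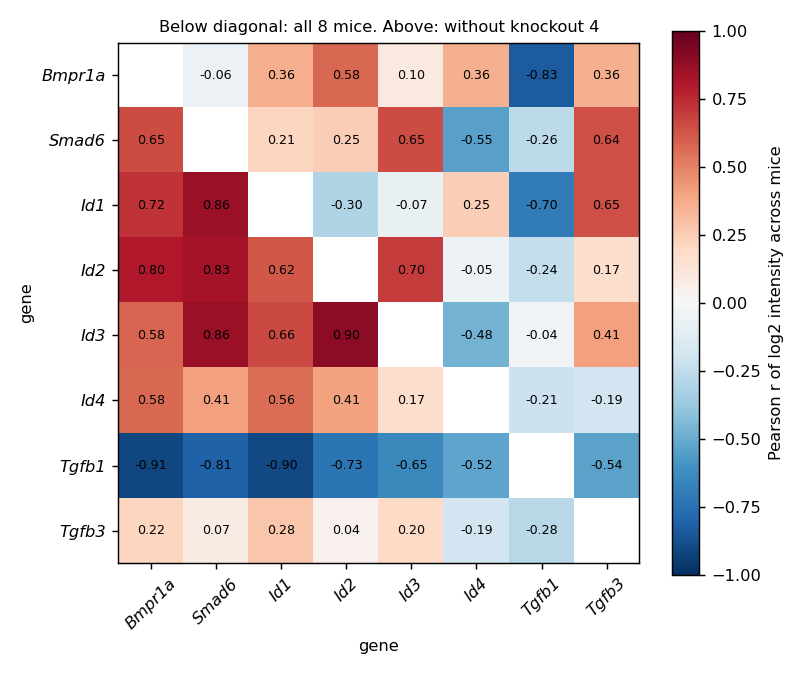
Pearson's r of log2 intensity for each pair of the 8 tested genes, each on its brightest tested probe. Values below the diagonal are over all 8 mice, and those above it over 7 mice without knockout 4. Red is positive and blue negative. The negative values of Tgfb1 with Bmpr1a (-0.91) and Id1 (-0.90) remain at -0.83 and -0.70 without knockout 4. The positive values of Smad6 with Id1 and Id2 go from 0.86 and 0.83 to 0.21 and 0.25.

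The genes whose levels were most like those of each member over the 8 mice were taken as the 3 with the highest r among all genes tested. For Tgfb1 these were Sec23b (r = 0.986), Klf10 (0.979) and Dpf1 (0.966). For Bmpr1a they were Fcho2 (0.977), Vegfa (0.973) and Brat1 (0.970), and for Id1 Ikbip (0.978), Ppp1r1a (0.977) and Rprm (0.975). Id2 was most like Pigr (0.979), Fzd2 (0.976) and Nudt11 (0.976), and Id3 most like Slc17a2 (0.984), Zfp553 (0.981) and Dixdc1 (0.975). For Smad6 they were Sult1c2 (0.993), Zan (0.989) and Cryl1 (0.988), where without knockout 4 r was 0.833, 0.712 and 0.697. For the other members named here r without knockout 4 was 0.908 or above. Id4 was most like Pgls (0.966), Pid1 (0.965) and Lrmp (0.962), and Tgfb3 most like Mon2 (0.932), Lpar4 (0.930) and Pnma2 (0.924). With 10184 genes and 8 mice, high values of r occur among many genes, and they are given as a description.

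The other genes of both pathways were read from 6 lists by role. None of their genes passed the threshold. Of 9 other genes tested from the ligand list 7 had lower means in the knockout, with a median of -0.43. The list takes in Bmp1 (-0.24), which encodes a protease despite its name. Bmp2 and Bmp6 of this list were too dim to test. Tgfb2, the remaining TGF-beta ligand, differed by -0.54 (SE 0.20, limma adjusted p = 0.408), with values of 7.01 to 7.97 in wildtype and 6.99 to 7.16 in knockout colons. Tgfb2 thus lay on the side of Tgfb3 and not of Tgfb1. Bmp5 differed by -0.55, and by -0.36 without knockout 2. Inhbb, which encodes an activin subunit, differed by 0.88, by 0.54 without knockout 4 and by -0.71 with array position as a term. Without background correction the changes were -0.29 for Tgfb2, -0.19 for Bmp5 and 0.38 for Inhbb. The ligand median was -0.25 without knockout 4, -0.20 without knockout 3, -0.26 without wildtype 2 and -0.19 without background correction.

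Secreted antagonists, which bind BMP ligands outside the cell, had lower means in 8 of 8 genes tested, with a median of -0.30. Nog of this list was too dim to test, and Chrdl1 was detected on no array. Sostdc1, an antagonist of BMP and Wnt, differed by -0.38 (SE 0.14, limma adjusted p = 0.417), and Chrd, which encodes chordin, by -0.31, or by -0.072 without wildtype 4 and -0.14 without knockout 1. Without background correction the median of the antagonists was -0.15, with Sostdc1 at -0.15 and Chrd at -0.16. Twsg1, a chordin partner, had values of 12.27 to 12.49 in wildtype and 11.78 to 12.21 in knockout colons, without overlap, a difference of -0.29 (SE 0.13, limma adjusted p = 0.450). With position as a term 6 of the 8 were lower, and Twsg1 was at 0.060.

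Of 10 other receptors and co-receptors 7 had lower means, with a median of -0.16. This median was -0.067 without wildtype 4, -0.093 without wildtype 1 and -0.082 without background correction. Acvr1c, which encodes the activin-type receptor ALK7, had log2 intensities of 7.74, 7.18, 6.73 and 6.97 in wildtype colons 1 to 4. Its values in knockout colons 1 to 4 were 6.46, 6.11, 6.45 and 5.02. The probe was above background in all 4 wildtype colons and in 3 of the 4 knockout colons. The genotypes did not overlap. A difference of -1.14 (SE 0.34) did not pass (limma adjusted p = 0.369), and it takes in the value of knockout 4, which lies below the lowest detected signal of that array (5.57). It was -0.82 without knockout 4, -0.46 without background correction and in the authors' table, and 0.20 with position as a term. Acvr2b, a type II receptor for activins, differed by -0.28 and Tgfbr3, the co-receptor betaglycan, by -0.22, or -0.14 without knockout 3. Bmpr1b, Acvr1b and Bambi were too dim to test.

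The 10 tested Smads and cofactors had a median of -0.0090, with 6 of 10 lower, and with median scaling of the arrays 4 of 10 were lower and the median was 0.029. Smad3, the receptor Smad of the TGF-beta branch, differed by -0.37 (SE 0.14, limma adjusted p = 0.426), with values of 8.82 to 9.39 in wildtype and 8.67 to 8.92 in knockout colons. Skil, a corepressor of Smads, differed by -0.36 with all mice and -0.20 without wildtype 4. Pmepa1, a TGF-beta target that restrains the pathway, differed by 0.39 with all mice, by 0.16 without knockout 4 and by 0.14 without background correction. Smad9 and Zfyve9 were detected on no array.

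Of 9 genes of the latent complex and its activation 5 had lower means, with a median of -0.10. That median was 0.053 without wildtype 1, -0.044 without wildtype 2, and -0.063, 0.012 and -0.010 without knockouts 1, 2 and 3. Ltbp1, which tethers latent TGF-beta to the matrix, differed by -0.36 (SE 0.14, limma adjusted p = 0.426) on its brightest probe, without overlap of the groups, and by 0.070 when its probes were averaged. Ltbp2, of the same family, was above background in only 1 wildtype colon and in all 4 knockout colons. Its fitted difference of 0.39 was 0.19 without knockout 1 and 0.12 without background correction. Itgav, an integrin subunit that activates latent TGF-beta, differed by 0.58, by 0.20 without knockout 4, by 0.26 without background correction and by -0.34 with position as a term.

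Among 13 other response genes 9 had lower means, with a median of -0.041. Klf10, an early gene induced by TGF-beta and among the genes most like Tgfb1, had log2 intensities of 6.32, 6.33, 6.09 and 6.09 in wildtype colons 1 to 4. In knockout colons 1 to 4 the values were 6.79, 6.55, 6.41 and 7.19. As with Tgfb1, every knockout colon lay above every wildtype colon, and knockout 4 was the highest. The difference was 0.53 (SE 0.18, limma adjusted p = 0.387), 0.38 without knockout 4 and 0.20 without background correction. Hey1, a target of Notch and BMP signals in endothelium, differed by -0.39 and Tsc22d1, induced by TGF-beta, by -0.25. Without wildtype 4 these changes were -0.25 and -0.13, and Hey1 was at -0.24 without background correction.

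**Figure D5:**
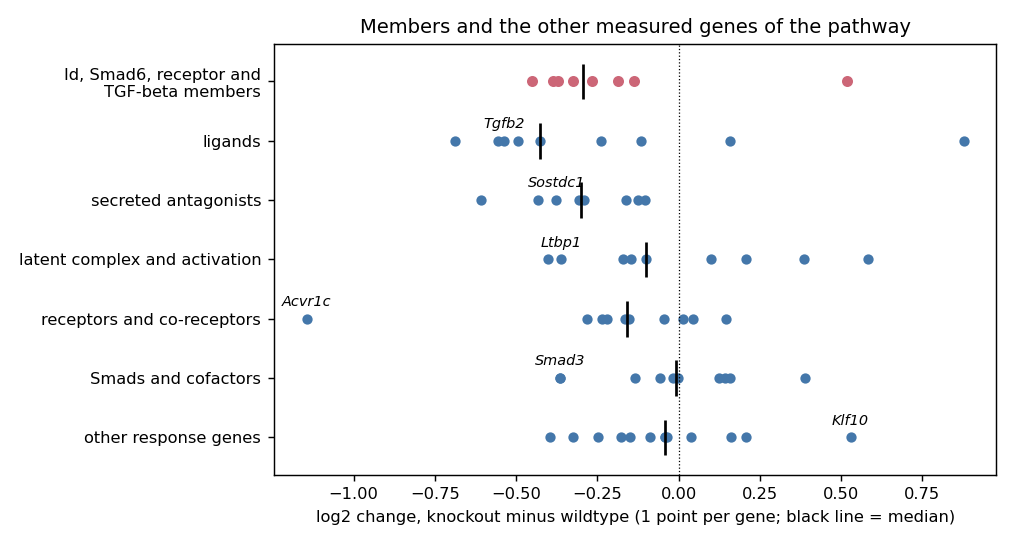
Log2 change from wildtype to knockout for the 8 tested genes (red) and for the other measured genes of the pathways by role (blue), with the median of each row as a black line and the gene with the smallest p of each list named. All 8 tested secreted antagonists lie below 0, Smads and cofactors lie around 0 with a median of -0.0090, and Tgfb1 is the only member above 0.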

How the data were processed

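RNA from whole colons was amplified with Illumina TotalPrep and labelled with Cy3, per the labels' protocols. Per the submitters' processing notes, GenomeStudio was used (version not stated). Per the file headers, the deposited raw table lists the intensity (average signal) of 25697 probes on each of 8 arrays, with a detection p-value beside each. The other table deposited by the authors, of processed intensity values, matches a quantile normalization of the raw values to within 0.0278 on the log2 scale and was used as an alternative. How they made it is not stated. Probes were named from the platform annotation. Of all probes 23978 had 1 gene symbol and 1719 none.

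Intensities were background corrected with normexp (offset 16), quantile normalized and logged (neqc, limma 3.58.1, R 4.3.3). The test covered the 14754 probes detected (p under 0.05) on at least 4 arrays, with genotype as the only term in lmFit and eBayes, with two-sided tests and Benjamini-Hochberg adjustment over all probes tested. Of a gene's tested probes the one with the highest mean stands for it. Named genes are the members with every probe, up to 3 genes of each pathway list with the smallest p, and the 3 genes most like each member. Members and lists were chosen with earlier results of these data known. The fit was tested on simulated data. Each numbered colon was taken as 1 mouse, and the number of arrays limits the precision. The alternatives were other background, scaling, filter, probe and variance settings, the authors' table, terms for replicate number, position and sex, array weights, and leaving out each mouse. The fit in only those mice with low skeletal muscle markers was chosen after seeing the data.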

Additional observations from a re-analysis of the deposited data

Results flagged for a closer look

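Of 16 sets of 4 values (8 genes in 2 genotypes), 1 held a mouse far from the others by Dixon's ratio. Smad6 in knockout 4 had a log2 intensity of 7.59, where the nearest other knockout colon had 8.85, and this gap is 0.928 of the whole range of the group. By chance about 1 set in 20 would be picked out. On the second Smad6 probe knockout 4 was also the lowest colon, at 6.43, with 6.52 in wildtype 4.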

How the results depend on the processing

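None of the 8 genes passed the limma threshold with any of the 21 alternatives (0 of 8 each time, with 0 to 3 at an unadjusted p under 0.05). Over all genes 2 passed by limma (1124 at an unadjusted p under 0.05). This count was 0 without background correction, in the authors' table, with the strict detection filter, with position as a term, with the sex pattern as a term and in the 4 mice low in skeletal muscle markers. It was 1 with the trended and robust prior and with a gene's probes averaged, and 0 to 10 without each mouse in turn, with 10 without knockout 1. The median change of the 8 genes was 0.11 with position as a term, where its sign turned (position and genotype correlate by 0.873), and -0.14 in the 4 mice low in skeletal muscle markers. Without each mouse in turn it was -0.35 to -0.15, the last without knockout 4. With position as a term the sign also turned for Smad6 (0.45), Id2 (0.36), Id3 (0.49), Itgav (-0.34), Inhbb (-0.71), Acvr1c (0.20) and Twsg1 (0.060). Id4 turned to 0.14 with the sex pattern as a term, to 0.10 with array weights, and ranged from -0.30 to 0.085 without each mouse in turn. Ltbp1 turned to 0.070 with its probes averaged, since they disagree. The cause of the other turns was not tested. Tgfb1 (0.33 to 0.63), Tgfb3 (-0.44 to -0.18), Id1 (-0.32 to -0.15) and Bmpr1a (-0.23 to -0.092) kept their sign in all 21. For Bmpr1a these fits used the brighter probe or the mean of its probes, and the dimmer probe alone differed by 0.0038. With the replicate number as a block 0 genes passed by limma (969 at an unadjusted p under 0.05). Deviations of same-numbered mice correlated by 0.14, 0.21, -0.18 and -0.038. These values show no pairing by number, and 4 mice per genotype are too few to exclude it. Signal over background limits Bmpr2, which could not be tested.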
